A study of Mus musculus with 8 samples.

Results

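Of the 11304 open regions that the authors listed for the mouse hippocampus, 873 (7.72%) were broad, of moderate strength and shared by most but not all libraries. They were chosen as the regions with 6 or 7 carriers, a length of at least 1500 bp and a mean z below 80. A carrier is a library with a strong peak in the region, and z is the authors' own peak score, whose scaling is not stated. These 873 regions are called the broad regions here. Since z, carriers and length made the selection, their values are given as a description with no test. Of the broad regions, 491 had 6 carriers and 382 had 7. The same carrier numbers were found in 4545 other regions, of which 3751 were narrow (under 1500 bp, mean z below 80) and 794 had a mean z of 80 or more.

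The libraries came from the hippocampus of 8 male C57BL/6J mice, 2 months old, which had all been handled daily for 3 days. The conditioned group of 4 mice received contextual fear conditioning, a single foot shock (2 s, 1.5 mA) in a chamber, and was dissected 30 min later. The control group of 4 mice was only handled, and its tissue was taken at the same clock time. Each library stands for the hippocampus of 1 mouse, so that p-values measure the spread between mice together with that of library preparation, and all cell types of the tissue are mixed.

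Sono-seq sequences crosslinked, sonicated chromatin without an antibody. Chromatin that is loosely packed, as at active promoters and enhancers, breaks more readily, so its fragments are enriched in the size-selected library and appear as peaks of reads. Loosely packed chromatin at active promoters usually spans a few nucleosomes, and a longer stretch can hold several such openings or one that is less sharply placed.

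The libraries differed in how much of their sequence lay in ordinary regions. Total counts over all regions were 36786183 to 83233550, but the 50 regions with the most counts took most of them, and the remaining regions held 3.35% and 5.47% of the counts in control replicates 1 and 3 against 9.21% to 17.5% in the other 6 libraries. None of the broad regions was among those 50 (0 of 873). The median count of a broad region was 210, 1035, 205 and 737 in control replicates 1 to 4, against 805, 502, 1257 and 1884 in conditioned replicates 1 to 4. Control replicates 1 and 3 thus had the fewest reads behind each value, and the fold changes and shares that rest on them are given with and without them. The lowest count of any broad region in any library was 13.

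The broad regions were 1500 to 5350 bp long with a median of 1806 bp, and 26 of them reached 3000 bp. Their mean z ran from 34.7 to 79.999 with a median of 62.8. At the limits of the rule, the 3 shortest members were each 1500 bp long with mean z of 52.4, 56.5 and 69.6, and the nearest regions left out were 1499, 1499 and 1494 bp long. The 3 members nearest the other limit had mean z of 79.999, 79.9 and 79.8, and the nearest regions left out had 80.1, 80.1 and 80.3. Both limits therefore cut through a continuous range, and nothing separates the members from their nearest neighbours in length or z.

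The broad regions lay on all 19 autosomes and together covered 1723 kb (mm9). They made up 5.68% of the listed regions on chromosome 7 and 9.66% on chromosome 12, the lowest and the highest share. The median distance to the nearest listed region was 60320 bp, against 47420 bp for the other regions, and 6.53% against 5.7% lay within 2000 bp of another. Broad regions thus mostly stood alone, and 9 neighbouring pairs of them were within 10000 bp of each other. Near the start of a chromosome, the centromere end in the mouse, 10 began before position 4000000 and 5 of these before 3100000. Of the other listed regions 137 and 55 did, while the broad regions are 7.72% of the list. Genes, exons and promoters were not assigned, since no annotation of the mm9 build was used here.

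The listed regions could be rebuilt exactly from the peak lists, all 11304 of them. Peaks with a z of at least 30 were widened by 200 bp at each end, overlapping ones were joined across the 8 libraries, and joined intervals with at least 4 carriers were kept. No listed peak was longer than 950 bp, so that 1 peak alone makes a region of at most 1350 bp. Every broad region is therefore a chain of at least 2 strong peaks that lie in different places, in 1 library or in several. The broad regions held 6 to 18 strong peaks over all libraries, with a median of 8.

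The joining step decided part of the length. Without any widening, 386 broad regions (44.2%) still formed 1 piece, and with widening of 50, 100 and 150 bp there were 650, 747 and 799. With the widening of 200 bp at each end included, a single library's own strong peaks spanned at least 1500 bp in 734 regions (84.1%). The other 139 reached that length only across libraries. Conditioned replicates 4 and 3 contributed most to the length. Leaving either out left 675 and 697 regions in 1 piece of at least 1500 bp, whereas leaving out control replicate 1 or 3 left 844 and 858. With the same widening, the stretch from a library's first to its last strong peak had a median of 41.2%, 61.0%, 24.4% and 49.9% of the region in control replicates 1 to 4. In conditioned replicates 1 to 4 it was 57.6%, 46.5%, 71.7% and 80.2%. The widening is part of these shares, and most of them where a library has 1 short peak.

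Inside the broad regions, strong peaks were often split into separate runs, a run being a group of strong peaks with gaps of up to 100 bp. Of the 5620 pairs of a broad region and a library that carries it, 29.6% held 2 or more runs, against 4.76% in the narrow regions. In the 112 regions with 6 or 7 carriers, at least 1500 bp and a mean z of 80 or more it was 26.5%. Split peaks were thus not particular to the broad regions of moderate z. By library the share in the broad regions was 4.95%, 33.2%, 2.74% and 20.5% in control replicates 1 to 4. In conditioned replicates 1 to 4 it was 23.0%, 14.7%, 45.2% and 55.9%. The group means were 15.3% ± 14.3 for controls and 34.7% ± 19.1 for conditioned mice (SD, n = 4 each), and the ranges of the groups overlapped. Without control replicates 1 and 3 the mean of the other 2 controls was 26.8%. The libraries with the highest strong-peak scores, conditioned replicates 4 and 3, had the most split regions, and control replicates 1 and 3, with the lowest, had the fewest. The part of score height in this order was not tested.

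**Figure D1:**
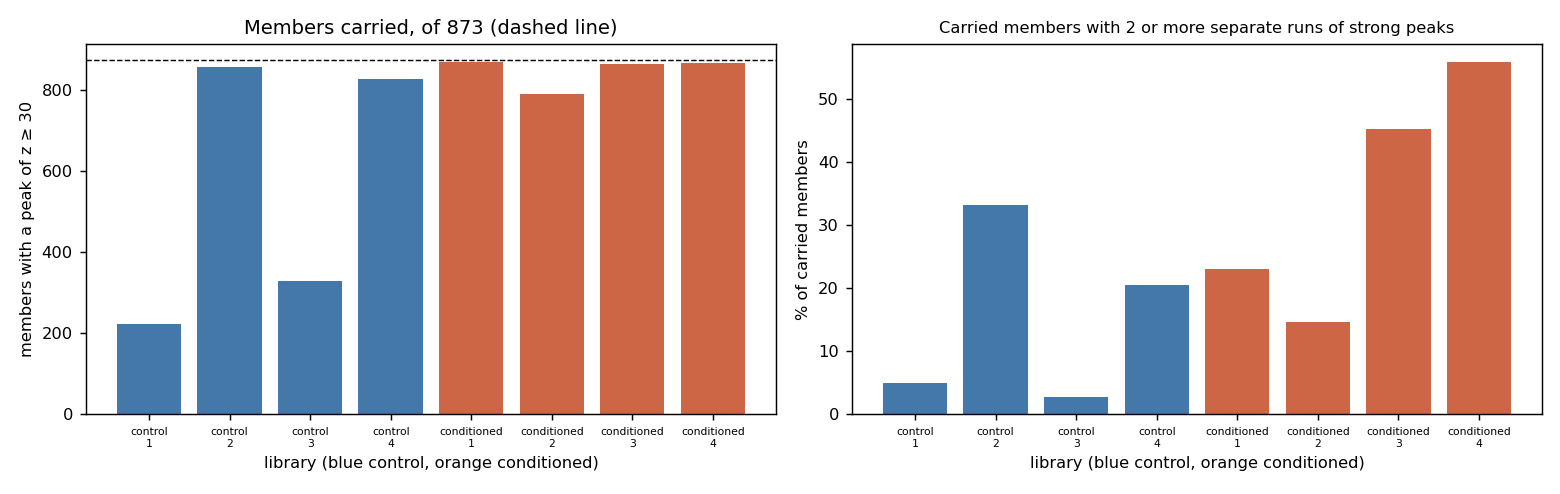
Number of the 873 broad regions with a peak of z of at least 30 (left) and percent of the carried regions whose strong peaks form 2 or more runs (right), 1 bar per library. Control replicates 1 and 3 carried 222 and 328 regions and had split peaks in 4.95% and 2.74% of them, both below all other libraries.

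Split peaks were rarely shared by all carriers. A single run in every carrier was found in 107 broad regions (12.3%), against 76.1% of the narrow regions. In 325 broad regions 1 library had split peaks, in 203 there were 2 such libraries, and in 122 (14.0%) at least 4. The 112 regions of at least 1500 bp with a mean z of 80 or more were similar. Of these, 8.93% had a single run in every carrier and 13.4% had split peaks in at least 4 libraries. The place of the strongest peak also varied between the carriers of a region. Its range over the carriers had a median of 521 bp (quartiles 350 and 917 bp) in the broad and 168 bp in the narrow regions. In the 112 regions it was 335.5 bp. A longer region leaves more room for separate runs and for such a range, so these values describe the broad regions and are no test against the narrow ones.

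Within each broad region the strongest peak lay mostly to the right, toward the higher coordinate. It was right of the centre in 69.8% of carried regions, with a median offset of 250 bp. The share was 63.1%, 70.2%, 69.5% and 71.2% in control replicates 1 to 4, against 68.2%, 71.5%, 69.9% and 69.6% in conditioned replicates 1 to 4. All 8 libraries therefore showed the same side, and the groups overlapped. In 360 regions every carrier had its strongest peak on the right and in 43 every carrier had it on the left. Among narrow regions the share on the right was 43.8%, with values on both sides of the centre in the plot of peak position. Among the 112 regions with 6 or 7 carriers, at least 1500 bp and a mean z of 80 or more it was 74.1%.

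**Figure D2:**
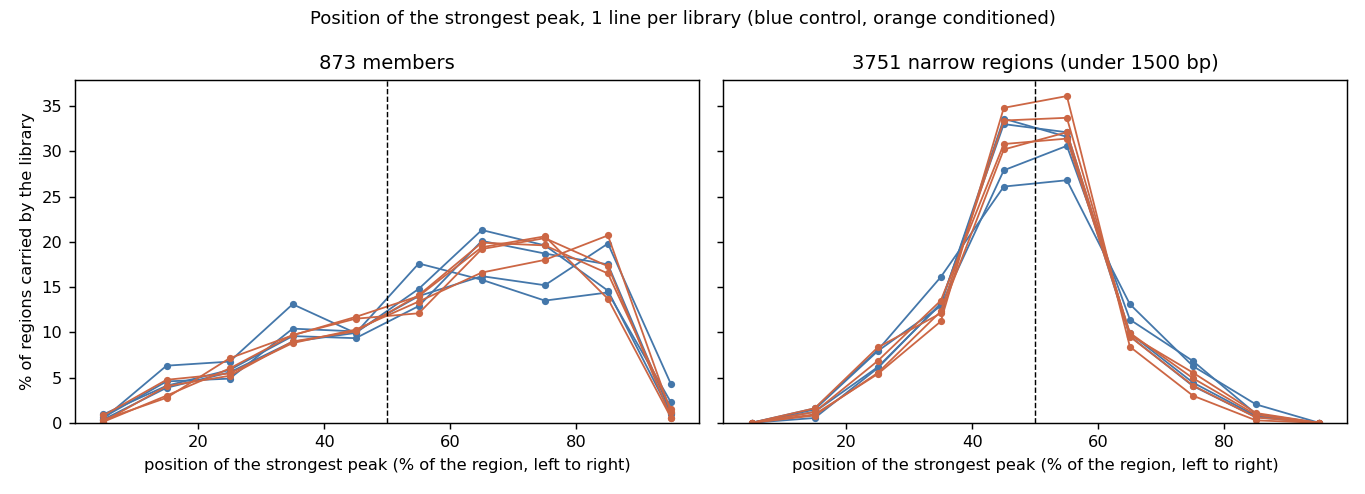
Position of the strongest peak within the region, as percent of its length from the lower to the higher coordinate, for the 873 broad (left) and the 3751 narrow regions (right), 1 line per library. In the broad regions all 8 lines are highest right of the centre, and in the narrow regions they are highest around it.

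This side is set by coordinates and not by the direction of a gene, and the peak lists themselves had an order. Over all 8 lists, when the starts of 2 neighbouring peaks were less than 1200 bp apart, the left peak had the higher z in 1086380 of 1087465 pairs (99.9%). At 1200 to 1300 bp this share was 17.9%, and at 1300 to 2000 bp it was 42.0%. The lists thus change from one order to the other at a fixed distance. Neighbouring strong peaks within the broad regions followed the same steps. The left peak was the higher in 626 of 633 pairs (98.9%) below 1200 bp, in 134 of 893 (15.0%) at 1200 to 1300 bp and in 164 of 332 (49.4%) at 1300 to 2000 bp. The 1187 pairs within narrow regions were all less than 1200 bp apart, and the left peak was the higher in 1185. Pairs at 1200 to 1300 bp, where the right peak is usually the higher, were thus the most frequent kind in the broad regions, while the length of the narrow regions leaves no room for them. How far this order of the lists sets the position of the strongest peak was not tested.

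**Figure D3:**
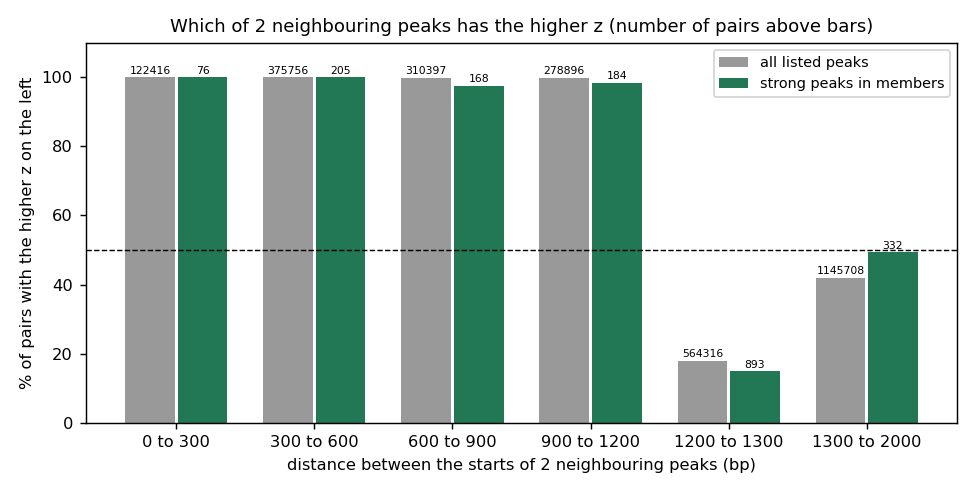
Percent of neighbouring peak pairs whose left peak has the higher z, by the distance between the 2 starts, for all listed peaks (grey) and for strong peaks within the broad regions (green), with the number of pairs above each bar. Both fall from at least 97.6% below 1200 bp to 17.9% and 15.0% at 1200 to 1300 bp.

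The left of 2 neighbouring strong peaks was also the longer one. In the 1880 neighbouring pairs within broad regions the left peak was longer in 65.1% and the right in 19.6%. The median distance from the end of the left to the start of the right was 450 bp. The left peak was higher in 49.9% of these pairs, so that over all distances neither side prevailed in z.

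The widest members show these chains in detail. On chromosome 9 at 91995435 to 92000785 (5350 bp), the strong peaks of 6 carriers were spread over the whole region, with the strongest peak of control replicate 3 (z 61.6) at 200 bp from the start and that of conditioned replicate 1 (z 47.3) at 600 to 1450 bp. Conditioned replicate 2 had its only strong peak (z 39.0) at 3451 to 3601 bp, and the strongest peaks of the carriers were up to 4025 bp apart. No position was shared by all carriers there. The 5040 bp region on chromosome 14 at 101494477 to 101499517 was similar, with strongest peaks up to 3547 bp apart.

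The 4295 bp region on chromosome 15 at 76008101 to 76012396 held the most strong peaks, 18, and was more regular. Conditioned replicate 1 had peaks at 302 to 1252, 1802 to 2552 and 3052 to 3702 bp with z of 40.0, 63.0 and 78.9. Conditioned replicate 3 had peaks at 295 to 1045, 1845 to 2745 and 3095 to 3595 bp with z of 39.1, 57.6 and 85.2, and a further one at 4095 bp. Conditioned replicate 4 likewise had its highest z, 104, in the peak at 2650 to 3600 bp. The strongest peaks of control replicates 1 and 2, with z of 30.4 and 60.3, lay at 2599 to 3549 and at 3104 bp. These 5 libraries thus placed their strongest peak between 2599 and 3702 bp, whereas control replicate 4 had its strongest (z 60.9) at 1050 bp and conditioned replicate 2 its single strong peak (z 37.3) at 4068 bp. The region on chromosome 8 at 20029254 to 20033704 (4450 bp) had the same median of 3 runs per carrier, with 17 strong peaks and split peaks in 6 of its 7 carriers.

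Missing carriers were mostly control replicates 1 and 3. Strong peaks were present in 222, 856, 328 and 826 of the broad regions in control replicates 1 to 4, against 869, 790, 863 and 866 in conditioned replicates 1 to 4. In 375 regions (43.0%) both control replicates 1 and 3 lacked one, in 247 only control replicate 1 and in 113 only control replicate 3, so that these 2 libraries account for all missing carriers in 735 regions. All 4 conditioned libraries carried 773 regions, and all 4 controls carried 20. The other 4545 regions with 6 or 7 carriers had a like pattern, with 20.5% and 32.8% carried by control replicates 1 and 3, against 25.4% and 37.6% here. The number of carriers is the selection rule itself, and these values support no difference between the groups.

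A missing strong peak was not a missing peak. Of the 651 broad regions that control replicate 1 did not carry, 650 had a weaker listed peak, with a median highest z of 19.8. In control replicate 3 all 545 did, with a median of 20.6. The highest z in a broad region had medians of 23.2, 65.6, 25.5 and 55.8 in control replicates 1 to 4, against 61.9, 44.9, 78.3 and 104 in conditioned replicates 1 to 4. The 2 libraries with the fewest counts outside the highest regions thus also had the lowest scores.

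Median read levels were close in all libraries. The median level of a broad region was 9.57, 11.2, 10.9 and 12.4 in control replicates 1 to 4, against 9.93, 11.4, 10.9 and 11.2 in conditioned replicates 1 to 4, in TMM-scaled CPM (counts scaled to a common library size). The means of these medians were 11.03 ± 1.16 CPM for controls and 10.9 ± 0.659 CPM for conditioned mice (SD, n = 4 each), a difference smaller than either SD. TMM scaling sets the bulk of regions level, and the broad regions sat level with them. Per kilobase of length, the broad regions had medians of 5.03 to 6.38 CPM per kb, below the 6.71 to 7.73 of all regions and the 6.95 to 10.1 of the narrow regions.

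The broad regions held 0.341%, 1.54%, 0.628% and 1.25% of all counts in control replicates 1 to 4, against 1.03%, 1.52%, 1.55% and 2.05% in conditioned replicates 1 to 4. The group means were 0.940% ± 0.552 and 1.54% ± 0.416 (SD, n = 4 each). Outside the 50 highest regions their share was 11.6% ± 1.06 for controls and 11.7% ± 0.513 for conditioned mice (SD, n = 4 each). The difference in share of all counts was thus 0.598 percentage points (SE 0.346), and outside the 50 highest regions it was 0.149 points (SE 0.588). Without control replicates 1 and 3 these differences were 0.143 and -0.606 points, so that the second changed sign.

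Control replicate 1 carried broad regions whose level in the other libraries was lower than that of the regions it did not carry. Its 222 carried broad regions had a median of 16.9 CPM in that library and 8.20 CPM over the other 7. The 651 it did not carry had 7.70 CPM there and 11.4 CPM in the others, the opposite order. By the selection rule, a broad region that this library carries must lack a strong peak in another library. Part of the lower level elsewhere is therefore built in, and how much was not tested. Across the 873 broad regions, Pearson's r between control replicate 1 and each other library in log2 CPM was -0.039 to 0.284 (median 0.079 over 7 pairs). The other 21 pairs of libraries had r of 0.253 to 0.772 (median 0.547). Over all listed regions outside the highest ones, control replicate 1 had r of 0.129 to 0.406 and the other pairs 0.456 to 0.787. Every pair thus had a higher r there than in the broad regions, and control replicate 1 still had the lowest values. How much of the lower r in the broad regions comes from their selection was not tested. Regions are not independent replicates, and each pair shares region lengths and base composition. Control replicate 1 was the lowest library in 323 of the broad regions and the highest in 136 (15.6%). Conditioned replicate 2 was the highest in 198 (22.7%).

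The comparison of conditioned with control mice asked whether any broad region differed in read level 30 min after training. No broad region passed edgeR's quasi-likelihood test at a Benjamini-Hochberg adjusted p below 0.05 (0 of 873, smallest adjusted p = 0.605), and across all regions 0.0% did. At unadjusted p below 0.05 there were 71 broad regions (8.13%), near the 7.79% of all regions. Of these, 10 were higher after conditioning (1.15%, against 1.76% of all regions) and 61 lower (6.99%, against 6.03%). The split of broad regions was thus close to that of the whole list. In this fit it differed from that of the narrow regions, of which 3.92% had an unadjusted p below 0.05, 1.97% higher and 1.95% lower. Without control replicates 1 and 3 the shares were 6.53% of broad and 7.62% of narrow regions, with 4.81% and 4.51% lower. With region totals alone they were 3.21% and 8.29%, so the difference did not hold in these fits. With control replicates 1 to 4 left out in turn, the number of broad regions at unadjusted p below 0.05 was 73, 81, 37 and 82. With conditioned replicates 1 to 4 left out in turn it was 70, 45, 45 and 37. The shares of all regions in these fits were not counted. Non-overlapping groups were found in 16 broad regions (1.83%, against 2.4% of all regions), 14 of them higher (1.5% of all regions) and 2 lower (0.902% of all regions).

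The log2 fold changes (conditioned over control) of the 873 broad regions ran from -2.71 to 1.65 with a median of -0.04, against -0.05 over all regions. Their median SE was 0.44. Without control replicates 1 and 3 the median was -0.09 (0.02 over all regions), 0 regions passed the adjusted threshold and 57 had an unadjusted p below 0.05, 15 higher and 42 lower (6.53% in both directions, against 8.38% of all regions, with 3.34% higher and 5.03% lower). Non-overlapping groups were then found in 142 (16.3%, against 17.1% of all regions). Scaled by region totals alone, the median of all regions moved to 0.75 and that of the broad regions to 0.71, and 28 broad regions had an unadjusted p below 0.05, all of them higher (3.21%, against 9.65% of all regions). With that scaling 0 broad regions passed the adjusted threshold (0.0531% of all regions) and 28 had non-overlapping groups (5.69% of all regions). The direction of single regions is therefore given relative to the bulk of regions.

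DESeq2's Wald test called 2 broad regions (0.229%, against 0.354% of all regions), both lower after conditioning (0.336% of all regions). They were the regions on chromosome 11 at 3058579 (adjusted p = 0.0268) and on chromosome 3 at 75471189 (adjusted p = 0.0411), which had adjusted p = 0.605 in edgeR. At unadjusted p below 0.05 the Wald test gave 82 (9.39%, against 10.2% of all regions).

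The lower values were gathered in the weakest of the broad regions. Among the 126 with a mean z below 50, 47 were lower at unadjusted p below 0.05 (37.3%, against 6.03% of all regions). Their median log2 fold change as a class was -0.90. In the classes of mean z from 50 to 60, 60 to 70 and 70 to 80, with 218, 324 and 205 regions, there were 8, 4 and 2 such regions and the medians were -0.05, 0.04 and 0.07. Without control replicates 1 and 3 the median of the weakest class was -0.11 and 5 of its regions were lower, so that the difference rested on those 2 libraries. In that class the median level was 14.1, 5.18, 9.93 and 5.29 CPM in control replicates 1 to 4, against 5.34, 5.76, 4.45 and 3.29 CPM in conditioned replicates 1 to 4. Only control replicates 1 and 3 stood high.

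The same held for the 52 broad regions with a strong peak in both control replicates 1 and 3. Of these, 32 were lower at unadjusted p below 0.05 (61.5%, against 6.03% of all regions). The median log2 fold change of the 52 was -1.34, and -0.06 without those 2 libraries. They include all 20 broad regions with fewer conditioned than control carriers (median -1.36, and -0.21 without those libraries), and 40 of them belong to the weakest class. In all 61 broad regions with lower values, control replicate 1 or 3 was the highest of the 8 libraries. Outside these 2 classes, 9 of 735 broad regions (1.22%) were lower at unadjusted p below 0.05 and the median was 0.03. Mean z and carriers are read from the same libraries as the counts, so these classes are described and not tested. The same classes were not counted among the other listed regions, so the pattern is not shown to be particular to the broad regions.

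**Figure D4:**
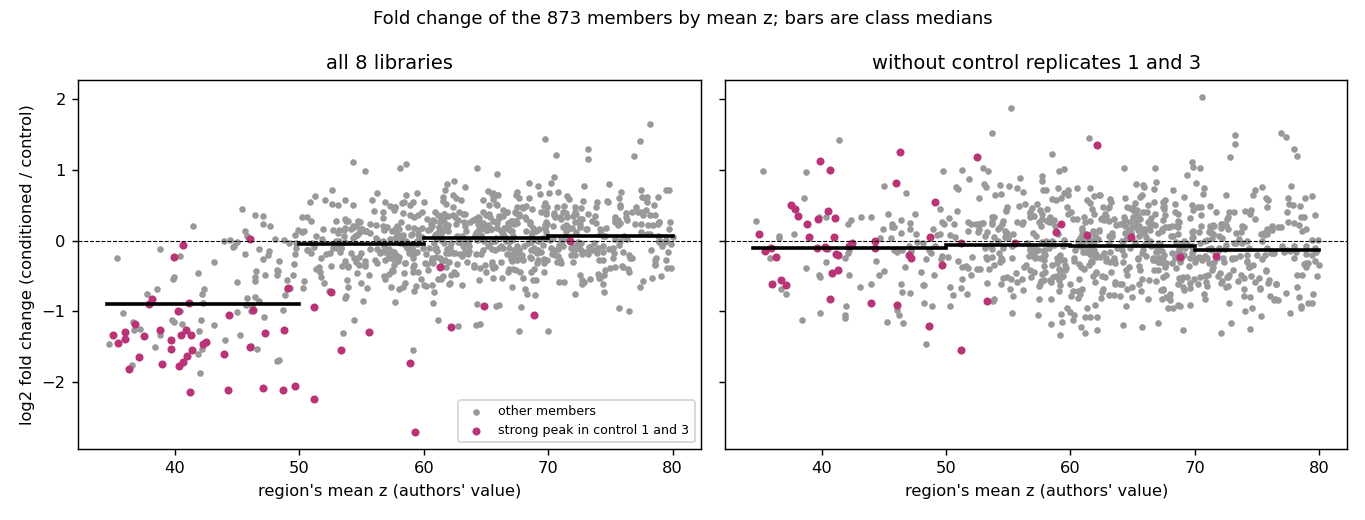
Log2 fold change of each of the 873 broad regions (conditioned over control, TMM-scaled) by its mean z, with all 8 libraries (left) and without control replicates 1 and 3 (right). Purple points are the 52 regions with a strong peak in both of those controls, and black bars are class medians, which go from -0.90 to -0.11 in the weakest class once those libraries are left out.

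Of the 10 broad regions with the most reads per length, 5 began before position 3100000, 1 on chromosome 4 and 4 on chromosome 11. The densest, on chromosome 4 at 3016272 to 3018780, had 238, 45.4, 105 and 51.7 CPM in control replicates 1 to 4, against 80.2, 58.3, 44.0 and 35.9 CPM in conditioned replicates 1 to 4, a mean of 32.8 CPM per kb. Control replicates 1 and 3 were high and the groups overlapped. Its log2 fold change of -1.01 (SE 0.52; edgeR adjusted p = 0.659) was 0.16 without those 2 libraries. Its carriers had a median of 1 run, with the strongest peak of 4 of its 7 carriers ending between 1810 and 1926 bp from the region's start.

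On chromosome 11, the region at 3079579 to 3081231 had 83.6, 21.2, 74.1 and 19.97 CPM in control replicates 1 to 4, against 35.1, 16.2, 17.3 and 12.3 CPM in conditioned replicates 1 to 4. Again control replicates 1 and 3 were the highest, and its log2 fold change of -1.29 became -0.04 without them. The region at 3062431 to 3064479 had 95.5 CPM in control replicate 1 and 25.9 to 27.5 CPM in the other controls, and 11.2 to 34.1 CPM in conditioned libraries. The region at 3064779 to 3066279 had 63.8 CPM in control replicate 1 and 13.0 to 25.8 CPM in the other 7 libraries, and its log2 fold change of -0.71 was 0.24 without control replicates 1 and 3.

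The member on chromosome 11 at 3058579 to 3060282 had the smallest unadjusted p of all broad regions. It had 53.5, 18.5, 106 and 38.4 CPM in control replicates 1 to 4, against 15.2, 7.27, 16.8 and 10.6 CPM in conditioned replicates 1 to 4. Every conditioned library was below every control, by a narrow margin between 18.5 and 16.8 CPM. The log2 fold change was -2.12 (SE 0.51; unadjusted p = 0.000761, edgeR adjusted p = 0.605), and -1.21 without control replicates 1 and 3. It did not pass edgeR's adjusted threshold. In this group of 5 regions, multiply mapped reads were not examined, since their handling is not given in the sources used here.

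The other 5 of the 10 densest members lay inside chromosomes. On chromosome 5 at 104759777 to 104761307 there were 70.2 CPM in control replicate 1 and 11.2 to 35.6 CPM in the other 7 libraries. Control replicate 3 was the highest library on chromosome 8 at 13104630 to 13106580, with 68.3 CPM against 9.21 to 29.3, and on chromosome 9 at 100543335 to 100544935, with 46.5 CPM against 5.61 to 37.8. Conditioned replicate 2 was the highest on chromosome 13 at 69672115 to 69674066, with 44.7 CPM against 16.9 to 36.6. The region on chromosome 13 at 55572666 to 55574369 was the most even, with 15.9 to 24.4 CPM in control and 20.6 to 30.0 CPM in conditioned libraries. In each of these 5 the groups overlapped.

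Of the 5 widest members, 4 had a mean z below 50 and lower mean values after conditioning, with none past the adjusted threshold. The 5350 bp region on chromosome 9 had 34.0, 7.15, 38.2 and 6.02 CPM in control replicates 1 to 4, against 11.4, 7.81, 5.60 and 2.73 CPM in conditioned replicates 1 to 4. Its log2 fold change of -1.63 (SE 0.61) became 0.05 without control replicates 1 and 3. The 5040 bp region on chromosome 14 at 101494477 went from -1.54 to 0.31 and the 4450 bp region on chromosome 8 at 20029254 from -1.27 to 0.05. In these 3 regions the sign thus rested on those 2 libraries. The fifth widest, on chromosome 3 at 157997562 to 158001517 (3955 bp), kept a log2 fold change of -0.89, against -1.61 with all libraries. The chromosome 15 region at 76008101 had 54.0, 20.3, 20.1 and 32.7 CPM in control replicates 1 to 4, against 39.0, 28.1, 31.8 and 28.0 CPM in conditioned replicates 1 to 4, and its groups overlapped.

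The other members with the smallest p on the lower side were picked for that p on these libraries, and none passed the adjusted threshold in edgeR. On chromosome 3 at 75471189 to 75472702 there were 12.9, 1.74, 17.1 and 11.5 CPM in control replicates 1 to 4, against 2.01, 3.43, 2.27 and 1.43 CPM in conditioned replicates 1 to 4. Control replicate 2 lay among the conditioned libraries, and the log2 fold change was -2.24 (SE 0.61), or -1.55 without control replicates 1 and 3. On chromosome 2 at 49463215 to 49464785 the controls had 17.9, 4.87, 33.5 and 4.19 CPM and the conditioned libraries 2.43 to 5.57 CPM, and the log2 fold change went from -2.06 to -0.34 without those 2 controls. Here only control replicates 1 and 3 stood above the conditioned libraries. The regions on chromosome 1 at 12476277 to 12478444 (-1.72) and chromosome 16 at 93995473 to 93997902 (-1.55) had -0.83 and -0.86 without them. The second region with non-overlapping groups on the lower side, on chromosome 12 at 111425494 to 111427177, had 6.90 to 14.8 CPM in control and 2.98 to 6.73 CPM in conditioned libraries (log2 fold change -0.85, and 0.01 with region totals alone).

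On the higher side, conditioned replicate 2 was the highest library in 9 of the 10 broad regions with an unadjusted p below 0.05. The one with the smallest p, on chromosome 5 at 23180735 to 23182335, had 10.3, 10.3, 9.24 and 7.52 CPM in control replicates 1 to 4, against 14.2, 60.5, 12.5 and 12.3 CPM in conditioned replicates 1 to 4. Every conditioned library was above every control, but only conditioned replicate 2 by a wide margin. The log2 fold change was 1.41 (SE 0.52; unadjusted p = 0.0152, edgeR adjusted p = 0.605), and 0.48 without that library.

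The next 4 regions in order of p were on chromosome 2 at 33494635 to 33496189, chromosome 5 at 9264935 to 9266535, chromosome 2 at 71383235 to 71385121 and chromosome 8 at 4257822 to 4259480. Conditioned replicate 2 had 31.0, 41.7, 20.01 and 45.7 CPM in them, against at most 9.66, 9.38, 11.9 and 13.6 CPM in any other library. Their log2 fold changes of 1.44, 1.65, 1.03 and 1.29 became 0.57, 0.51, 0.69 and 0.32 without it. All 5 kept their direction, at a smaller size.

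Among the regions with non-overlapping groups and the largest folds, those on chromosome 6 at 88142883 to 88144518 (log2 fold change 1.09) and chromosome 11 at 32354129 to 32355882 (0.84) also had conditioned replicate 2 as the highest library, with 30.5 and 18.9 CPM. The region on chromosome 2 at 180627421 to 180629485 did not. It had 11.9, 17.2, 17.4 and 14.9 CPM in control replicates 1 to 4, against 18.2, 21.2, 34.3 and 32.8 CPM in conditioned replicates 1 to 4, so that conditioned replicates 3 and 4 were high. Its log2 fold change was 0.80 (SE 0.37; unadjusted p = 0.046, edgeR adjusted p = 0.634), with 0.71 without control replicates 1 and 3 and 0.65 without conditioned replicate 3.

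**Figure D5:**
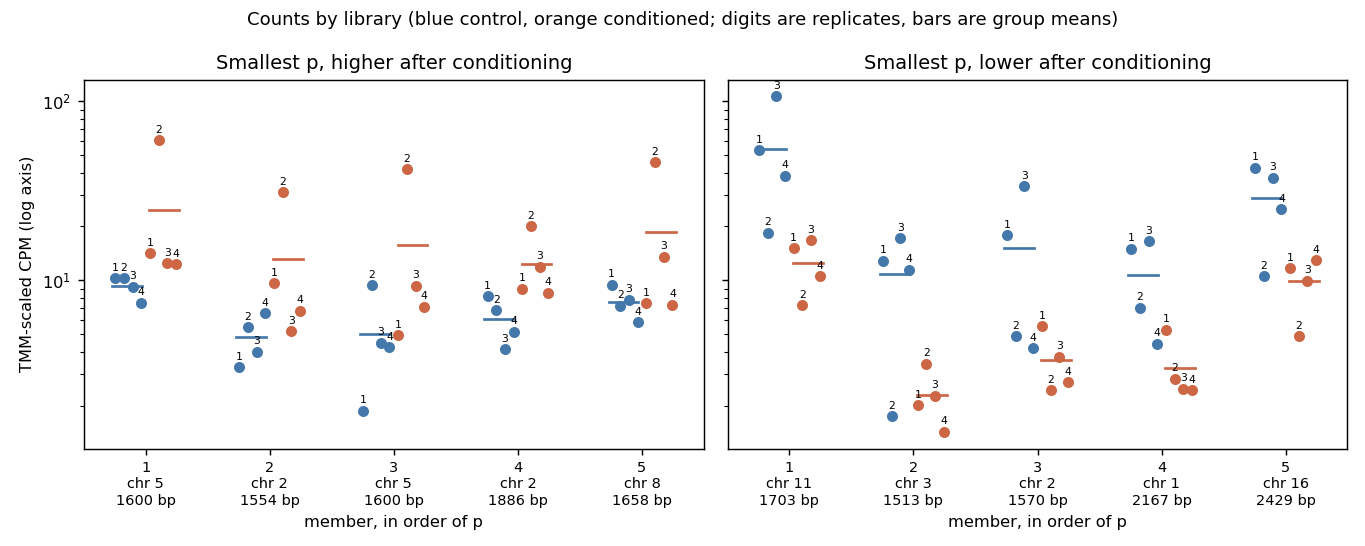
TMM-scaled CPM in each library (log axis) for the 5 broad regions with the smallest p on the higher side (left) and on the lower side (right), with group means as bars and replicate numbers as digits. Conditioned replicate 2 is the highest point in all 5 regions on the left, and control replicate 1 or 3 in all 5 on the right.

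Fewer conditioned than control carriers were found in 20 broad regions, each carried by all 4 controls. The 5 with the most reads among these were the chromosome 11 regions at 3079579 and 3058579, the chromosome 5 region at 104759777, the chromosome 16 region at 93995473, and one on chromosome 9 at 98855385 to 98857735. The last had 31.9, 24.6, 57.5 and 9.93 CPM in control replicates 1 to 4, against 14.9, 7.65, 13.7 and 23.3 CPM in conditioned replicates 1 to 4, and its groups overlapped. In all 5 the conditioned library without a strong peak was replicate 2, whose highest z there was 14.8 to 29.1.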

How the data were processed

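Reads had been aligned with Bowtie2 to mm9, per the submitters' processing notes, with peak calling, counting and read filters not given in the sources used here. The authors deposited raw read counts for 11304 regions in 8 libraries, a region list with mean z score and number of carriers, and 1 peak list per library with a z score per peak (lowest 5). Coordinates are as deposited, and starts may be off by 1 in a browser. Counts were fitted over all regions with edgeR 4.0.16 in R 4.3.3 (TMM factors, quasi-likelihood test, group only, two-sided, Benjamini-Hochberg adjustment), tested on simulated data first. The filter (minimum count 10, minimum total 15) removed 0 regions. DESeq2 1.42.0, other scalings and filters, other limits for members and peaks, and each library left out were alternatives. Fits and shares without control replicates 1 and 3, the classes of mean z and carriers, the other widenings and the order of peak pairs were added after seeing the data. Tables were handled in Python 3.11.15 with pandas 2.3.3. A library carries a region where it has a peak of z of at least 30. Named regions are the 10 densest, the 5 widest, the 5 with the smallest p and the 5 largest non-overlapping folds per direction, one each at the highest and lowest median of runs (ties by mean CPM), those nearest the limits, and 5 with fewer conditioned carriers. The members and lists were chosen with earlier results of these data known. Since the sequence and gene tables at hand belong to GRCm38.p6, not mm9, gene names, gene lists, cell type markers and sequences were not used here.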

Additional observations from a re-analysis of the deposited data

Results flagged for a closer look

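Each group of 4 libraries was screened for one value far from the rest, by the ratio of its gap to the group's range (Dixon's 95% level). Of 74 groups, from 8 library measures and 29 named broad regions, 10 passed. Chance gives about 1 in 20, but the groups share the same 8 libraries and the named regions were picked on their values.

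Conditioned replicate 2 stood apart in 6 of the 10. It carried 790 broad regions, against 863 to 869 in the other conditioned libraries. Its level was the highest of its group on chromosome 9 at 100543335 (37.8 CPM, the others 16.7 to 17.6), chromosome 5 at 23180735 (60.5 CPM, the others 12.3 to 14.2) and chromosome 5 at 9264935 (41.7 CPM, the others 4.92 to 9.31). The same held on chromosome 8 at 4257822 (45.7 CPM, the others 7.32 to 13.6) and chromosome 6 at 88142883 (30.5 CPM, the others 8.29 to 10.1). This library thus had fewer strong peaks than its group and high counts in regions picked for a difference.

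Control replicate 1 stood apart in 3. On chromosome 11 it had 63.8 CPM at 3064779 (the other controls 14.5 to 22.0) and 95.5 CPM at 3062431 (25.9 to 27.5), both above its group, and on chromosome 13 at 55572666 it had 15.9 CPM (23.6 to 24.4), below it. Conditioned replicate 1 was the highest conditioned library on chromosome 1 at 12476277, with 5.29 CPM against 2.44 to 2.82.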

How the results depend on the processing

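No broad region passed the adjusted threshold under any alternative except DESeq2's Wald test (2 broad regions, 40 of all regions). Region totals alone called 6 of all regions, 28 broad regions at unadjusted p below 0.05 and 28 with non-overlapping groups, with a median log2 fold change of 0.711. An adjusted p below 0.1 added none. Leaving out 1 library gave 37 to 82 broad regions at unadjusted p below 0.05, medians of -0.12 to 0.02 and 22 to 66 non-overlapping regions (the most without control replicate 1). For these fits the shares of all regions were not counted, so the counts are not read as a result about the broad regions. Without control replicates 1 and 3 there were 142 non-overlapping regions (16.3%, against 17.1% of all regions). Fewer libraries make non-overlap easier by construction. Other count filters left out 0 regions, so they give no check. The share of counts differed by 0.398 to 0.799 points without 1 library.

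Narrower rules for members changed the counts by construction. A length of at least 2000 bp left 312 regions, 36 of them at unadjusted p below 0.05, with a median distance of the strongest peak from its common position of 112 bp (76 bp for all members). A mean z below 60 left 344 regions, with a median log2 fold change of -0.195, strongest peaks on the right in 63.4% and a distance of 114 bp. There were 491 regions with 6 carriers, and 382 with 7, of which 18 had an unadjusted p below 0.05. In the same fit 7.79% of all regions had one, the background for this count and for the 36 above. Peaks of z of at least 10 gave 2 or more runs in 64.8% of carriers, and those of at least 50 in 10.4%. Without widening, 386 regions stayed in 1 piece. Other gaps, peaks wholly inside the region and each library left out moved the shape values by less than the spread between libraries.

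Of 20 named regions with a fold, 15 kept their direction under all 17 alternatives. Without control replicates 1 and 3 the log2 fold change turned positive on chromosome 4 at 3016272 (0.16), chromosome 9 at 91995435 (0.05), chromosome 14 at 101494477 (0.31) and chromosome 8 at 20029254 (0.05). With region totals alone it turned positive on chromosome 4 at 3016272 (0.23) and chromosome 12 at 111425494 (0.01). Control replicates 1 and 3 are the highest libraries in the first 4. The cause was not tested. The chromosome 11 region at 3064779 was outside the 20, and its log2 fold change of -0.71 also turned positive. It was 0.24 without control replicates 1 and 3, 0.47 with region totals alone and 0.03 without control replicate 1.

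The titles give the same numbers to both groups. The deviations of same-numbered libraries correlated at r of 0.165, 0.043, -0.060 and 0.269. Among the controls, only replicate 4 correlated best with the conditioned library of its own number. Among the conditioned libraries, only replicates 1 and 4 correlated best with the control of their own number. These correlations cannot show whether same-numbered mice were handled together. The main fit treated the samples as unpaired. With a replicate block, 0 regions passed and 56 broad regions had an unadjusted p below 0.05. The share of all regions in that fit was not counted. Depth limits control replicates 1 and 3 most.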
